A study of Mus musculus with 4 samples.

Results

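Cluster 86 is a group of neurons of the mouse posterior hindbrain whose name-giving gene here is Tfap2b, which encodes the transcription factor AP-2 beta. Its members were the nuclei that passed the authors' quality filters, were annotated as neurons and were assigned to cluster 86 in the deposited annotation. They numbered 111 of 12539 neurons and of 39461 kept nuclei. The nuclei came from a single-nucleus RNA sequencing experiment on a piece of hindbrain holding the area postrema (AP) and the nucleus of the solitary tract (NTS), read in 4 libraries, 2 of them of control and 2 of AgRP-Gq;POMC-Gi animals. AgRP-Gq;POMC-Gi mice carried AgRP-IRES-Cre and POMC-Dre (both +/-) together with the receptor alleles hM3DGq and hM4DGi (both fl/-). In them, Cre made under Agrp switches on the activating receptor hM3DGq and Dre made under Pomc switches on the inhibitory receptor hM4DGi (the Agrp neurons lie in the hypothalamus, whereas Pomc is also known from neurons of the NTS). Whether the receptor alleles had recombined in the nuclei of cluster 86 was not tested. Control mice carried the same receptor alleles without either recombinase according to the methods, while the sample labels call them wildtype. All mice of both groups received the receptor ligand clozapine-N-oxide (CNO) at 3 mg/kg into the peritoneum and were killed 1 h later without food, at 12 to 20 weeks of age, and both sexes were used. Each group consisted of 2 mice, which were pooled, and the sources do not say which mouse went into which library. The p-values below therefore measure the spread between libraries, which may be technical in part, and how much of it is so was not tested. Xist, the RNA of the inactive X chromosome, was found in 64.6% and 2.16% of neurons outside cluster 86 in AgRP-Gq;POMC-Gi libraries 1 and 2. These 2 libraries therefore did not hold the same mix of mice. In control libraries 1 and 2 Xist was found in 66.8% and 48.2% of these neurons. The Y-linked Uty was found in 23.2% and 35.5% of them, so the control libraries also differed in sex-linked genes.

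AP-2 factors bind DNA as dimers at GC-rich palindromes. In the developing hindbrain and spinal cord Tfap2b is known from inhibitory interneuron lineages, where it acts beside factors such as Pax2 and Lhx1. Inhibitory neurons of the dorsal hindbrain use GABA, glycine or both. GABA is made by the enzymes encoded by Gad1 and Gad2, and both transmitters are loaded into vesicles by the carrier encoded by Slc32a1. Glycine is gathered at the terminal by the transporter encoded by Slc6a5. Glutamatergic neurons are instead recognised by a vesicular glutamate transporter, Slc17a6, Slc17a7 or Slc17a8.

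Promoters are shown for Tfap2b and for 3 further genes that, as described below, had their highest mean among the neuronal clusters in cluster 86 (for Stard13 level with another cluster) and hold the palindrome GCCNNNGGC to which AP-2 factors bind. The sequences are from RefSeq on GRCm38.p6, read in the direction of the gene from 250 bases before the annotated start to 50 bases after it, with the palindrome in capitals. The Tfap2b promoter lies at chr1:19211804-19212103 (+), that of Foxo1 at chr3:52268087-52268386 (+), that of Stard13 at chr5:151190144-151190443 (-) and that of Rras2 at chr7:114117732-114118031 (-).
Tfap2b: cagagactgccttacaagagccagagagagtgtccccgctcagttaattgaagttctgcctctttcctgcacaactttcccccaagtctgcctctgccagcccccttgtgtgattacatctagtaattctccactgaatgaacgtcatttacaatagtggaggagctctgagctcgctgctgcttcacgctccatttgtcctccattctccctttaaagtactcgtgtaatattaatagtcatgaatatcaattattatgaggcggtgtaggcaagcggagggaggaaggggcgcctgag
Foxo1: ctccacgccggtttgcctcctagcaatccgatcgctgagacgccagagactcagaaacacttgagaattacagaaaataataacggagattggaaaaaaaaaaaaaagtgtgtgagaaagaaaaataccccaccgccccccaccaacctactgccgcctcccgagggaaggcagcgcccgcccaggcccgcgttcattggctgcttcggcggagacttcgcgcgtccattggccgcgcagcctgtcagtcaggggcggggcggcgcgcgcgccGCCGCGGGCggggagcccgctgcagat
Stard13: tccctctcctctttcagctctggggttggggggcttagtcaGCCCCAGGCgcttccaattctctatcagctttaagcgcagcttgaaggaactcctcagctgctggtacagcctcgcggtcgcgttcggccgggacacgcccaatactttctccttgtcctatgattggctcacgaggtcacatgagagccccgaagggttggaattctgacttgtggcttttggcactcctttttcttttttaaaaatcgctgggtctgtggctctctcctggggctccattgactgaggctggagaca
Rras2: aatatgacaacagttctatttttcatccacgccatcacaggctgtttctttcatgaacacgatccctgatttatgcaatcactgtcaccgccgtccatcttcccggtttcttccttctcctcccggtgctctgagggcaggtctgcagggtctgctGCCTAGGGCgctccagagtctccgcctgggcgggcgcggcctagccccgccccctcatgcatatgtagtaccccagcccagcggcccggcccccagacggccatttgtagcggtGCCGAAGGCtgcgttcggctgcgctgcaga
The Tfap2b window held no match. The match began 23 bases after the start of Foxo1, 209 bases before that of Stard13, and 94 bases before and 20 bases after that of Rras2. A promoter was listed for 12 of the 20 leading genes of cluster 86, and 5 of these genes had a match in at least 1 listed promoter, the other two being Tes and Zeb2. Over all genes with a listed promoter 5013 of 27025 (18.5%) had a match, and 5450 of 32851 promoters (16.6%). The palindrome reads the same on both strands. The Forkhead letters GTAAACA, searched on both strands because Foxo1 was among the leading genes, occurred in 3.65% of promoters and in those of 0 of the 12 leading genes. These are matches of letters in a window and do not show binding.

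Cluster 86 held 25 and 18 nuclei in control libraries 1 and 2 and 41 and 27 in AgRP-Gq;POMC-Gi libraries 1 and 2. Its share of the neurons of a library was 1.01% in control 1 (exact Clopper-Pearson 95% interval 0.656 to 1.49%), 0.658% in control 2 (0.390 to 1.04%), 1.11% in AgRP-Gq;POMC-Gi 1 (0.797 to 1.50%) and 0.742% in AgRP-Gq;POMC-Gi 2 (0.490 to 1.08%). The shares of the groups overlapped, and these intervals, like the others below, cover counting error only. Between the groups the share differed by 0.15 ± 0.48 on the log2 scale (± SE, AgRP-Gq;POMC-Gi over control, edgeR's quasi-likelihood test over 134 neuronal clusters, adjusted p = 0.918). Of these clusters 0 (0%) were called and 8 had an unadjusted p under 0.05. The direction of the difference in cluster 86 turned when a library was left out, to -0.13 without control 2 and to -0.16 without AgRP-Gq;POMC-Gi 1.

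A nucleus of cluster 86 carried a median of 6384 UMIs (unique molecular identifiers, each counting 1 captured RNA molecule), with a range of 2233 to 17051, against 8725.5 in the 12428 other neurons. By median UMIs it ranked 116 of the 134 neuronal clusters. Summed over nuclei, the cluster held 142737 to 244800 UMIs a library, and levels are given as UMIs of a gene for each 1000000 UMIs of the same nuclei (CPM). No barcode of cluster 86 occurred within the cluster in more than 1 library, and 2 of its barcodes were also kept in another library, where 168 of all kept barcodes were shared. Neuronal genes were present: Snap25, a protein of the synaptic fusion machinery, was found in 100% of nuclei and Rbfox3, the neuronal splicing factor NeuN, in 70.3%. Of the oligodendrocyte markers, Mbp was at 74.6 ± 51.7 CPM (mean ± SD, n = 4 libraries, as for all levels below) and 55.3 CPM in other neurons. The summed oligodendrocyte markers were at 659 CPM in control 2 and 159 to 234 CPM in the other three libraries, and the summed ependymal and choroid markers, nearly all Ttr, at 1345 and 803 CPM in control 2 and AgRP-Gq;POMC-Gi 2 but 5.20 and 12.3 CPM in the remaining libraries. Ttr showed the same library pattern in other neurons. Summed astrocyte markers were at 155 to 182 CPM in cluster 86 and 45.4 to 83.7 CPM in other neurons, summed microglia markers at 127 to 182 and 135 to 152 CPM, and summed oligodendrocyte precursor markers at 15.6 to 28.0 and 22.9 to 27.4 CPM. The summed vascular and fibroblast markers ran from 5.20 to 91.1 CPM in cluster 86 and 11.6 to 22.1 CPM in other neurons. Of these 7 markers 4 were at least 2-fold higher in cluster 86 than in other neurons and 2 at least 2-fold lower. The pericyte gene Rgs5 was at 29.1 ± 18.8 CPM in cluster 86, in 13.5% of nuclei, and the pericyte gene Pdgfrb at 0. In cell-sum data of this kind, RNA from other cells in the droplet and expression by the neurons themselves cannot be told apart.

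Tfap2b was at 484, 315, 372 and 460 CPM in control 1, control 2, AgRP-Gq;POMC-Gi 1 and AgRP-Gq;POMC-Gi 2, and at 15.4 to 26.5 CPM in the other neurons of the same libraries. Every library of cluster 86 therefore lay far above every library of other neurons, and the control and AgRP-Gq;POMC-Gi libraries overlapped. The mean was 408 ± 78.4 CPM, 19.0 times the 21.5 CPM of other neurons (4.18 on the log2 scale of mean CPM plus 1). A Tfap2b UMI was found in 79.3% of nuclei (exact 95% interval 70.5 to 86.4%), in 9.25% of other neurons and in 0.178% of oligodendrocytes, which had a median of 2460 UMIs. Because clusters were built from expression, this and all other comparisons of cluster 86 with other neurons are descriptions without a test.

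Among the 134 neuronal clusters, cluster 86 had the highest mean Tfap2b level. It did not stand alone: clusters 70, 126 and 85 followed at 352, 326 and 321 CPM with library values overlapping those of cluster 86, and cluster 120 at 214 CPM. Of the 133 other clusters 10 were over 100 CPM, 88 under 10 CPM and 34 at 0, with a median of 2.51 CPM. The Tfap2b-rich clusters did not share a transmitter. Clusters 70 and 85 had Slc17a6 at 162 and 130 CPM, whereas clusters 126 and 120 had Gad2 at 247 and 185 CPM and Slc6a5 at 122 and 202 CPM.

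**Figure D1:**
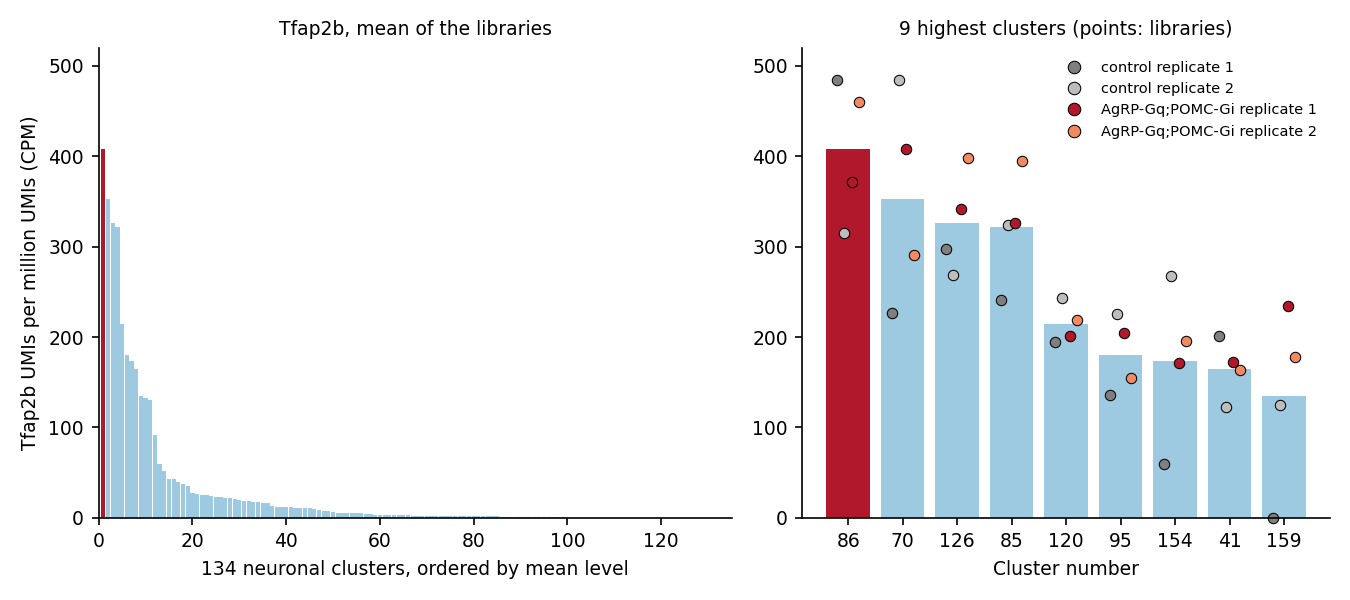
Tfap2b level in CPM (vertical axis) in the 134 neuronal clusters ordered by mean (left, bars are means over libraries) and in the 9 highest clusters with each library as a point (right). Cluster 86, in red, is highest at 408 CPM, and its points overlap those of clusters 70, 126 and 85.

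Of the other AP-2 genes, Tfap2d was also higher in cluster 86, at 10.4, 14.0, 12.3 and 16.1 CPM in the 4 libraries against 1.53 to 2.08 CPM in other neurons. This was shared with the Tfap2b-rich clusters 70, 126, 85 and 120, which had Tfap2d at 12.1, 8.24, 25.3 and 14.9 CPM. Tfap2a was at 4.11 CPM and 6.38 CPM in other neurons, Tfap2e at 3.05 and 3.14 CPM, and Tfap2c at 0 and 0.103 CPM. Tfap2b was thus accompanied by 1 relative at a low level, found in 8.11% of nuclei.

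Apart from Tfap2b, the genes that set cluster 86 most apart from other neurons were Abca4, Foxo1, Stard13, Klhl14, Col25a1, Rras2 and Sema3e. They belong to the 20 genes with the highest ratio to other neurons among 4322 genes found in at least 25% of its nuclei. In each of the 20, every library of cluster 86 was above every library of other neurons, and 9 of the 20 had their highest mean of all neuronal clusters here: Abca4, Foxo1, Klhl14, Rras2, Sema3e, Tfap2b, Stard13, Gm4128 and A830019P07Rik. For Tfap2b, Stard13, Gm4128 and A830019P07Rik the next cluster was within 1 SD of the libraries of cluster 86, and for Stard13 it was level, at 598 CPM in cluster 177 against 599.6 ± 148 CPM. The lowest of the 20 was Id4, at 2.20 on the log2 scale, and the next gene below it Prkg1, at 2.19.

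Abca4, a lipid transporter best known from photoreceptors, was at 72.9, 63.1, 69.4 and 102 CPM in control 1, control 2, AgRP-Gq;POMC-Gi 1 and AgRP-Gq;POMC-Gi 2 and at 1.31 CPM in other neurons. It had the largest ratio of the 20, 58.6 (log2 5.07), and was found in 37.8% of nuclei against 1.17% of other neurons. Foxo1, a Forkhead transcription factor restrained by insulin signalling, was at 167, 133, 73.5 and 96.4 CPM, a mean of 117 ± 40.9 against 7.35 CPM. Both control libraries were above both AgRP-Gq;POMC-Gi libraries for Foxo1, a difference of -0.80 on the log2 scale that did not pass the test (unadjusted p = 0.0331, adjusted p = 0.997, edgeR). Stard13, which encodes a GTPase activating protein, was at 677, 378, 690 and 653 CPM with 49.0 CPM in other neurons, and was found in 93.7% of nuclei. Oligodendrocytes also carried Stard13, in 68.6% of their nuclei, and Foxo1, in 10.9%, whereas Abca4 was found in 0.208% of them.

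Col25a1, a collagen of the membrane that is needed for motor nerve contact with muscle, was at 1634, 1261, 1038 and 1038 CPM against 132 to 140 CPM in the libraries of other neurons. It was found in 95.5% of nuclei, and only cluster 163 had a higher mean among the 134. Sema3e, a secreted guidance cue, was at 442, 343, 323 and 450 CPM against 66.0 CPM. Klhl14, which encodes a Kelch-like protein, was at 281, 322, 245 and 337 CPM against 27.3 CPM, and Rras2, a small GTPase related to Ras, at 98.9, 98.1, 106 and 123 CPM against 15.7 CPM. For Col25a1 and Klhl14 the libraries of both groups stood far above other neurons, and those of the groups overlapped for Klhl14 and not for Col25a1, whose controls were higher (log2 -0.44, adjusted p = 0.997, edgeR).

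The remaining leading genes held the zinc finger repressor Zeb2 (706 against 141 CPM), the calcium sensor gene Hpcal1 (147 against 29.3 CPM), the extracellular matrix gene Fbn2 (109 against 20.6 CPM), the tetraspanin gene Tspan18 (100.3 against 16.5 CPM), the focal adhesion gene Tes (62.1 against 11.6 CPM) and the inhibitor of basic helix-loop-helix factors Id4 (59.2 against 12.1 CPM). A further 5 were non-coding: A830019P07Rik and the antisense genes Gm4128, 4930426D05Rik, Gm4876 and Sox5os4. Gm4128 overlaps Sema3e, 4930426D05Rik overlaps Klhl14, Gm4876 overlaps Tes and Sox5os4 overlaps Sox5, each on the opposite strand, and the sources used here do not state how reads on the opposite strand were counted. Gm4128 and Sema3e, or Gm4876 and Tes, may therefore not be independent members of the list. Oligodendrocytes carried Zeb2 in 94.2% of nuclei and Fbn2 in 10.0%.

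**Figure D2:**
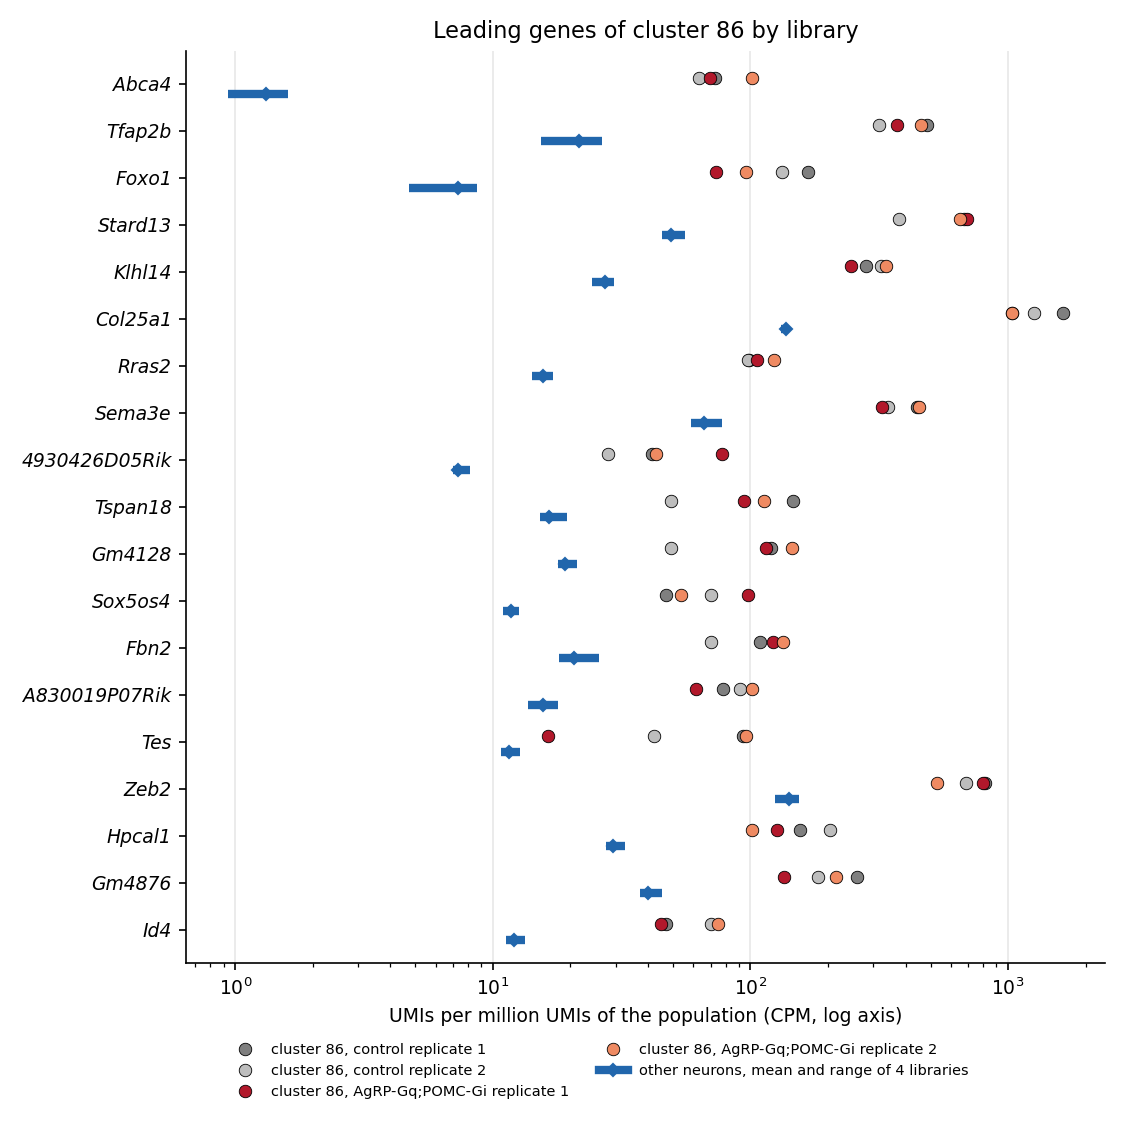
Level in CPM (horizontal log axis) of 19 leading genes in each library of cluster 86 (points) and in other neurons (diamond, mean, with a bar for the range of 4 libraries). No point lies within the range of other neurons, and Abca4 shows the widest gap, 76.8 against 1.31 CPM.

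Single nuclei of cluster 86 carried a median of 11 of the 20 leading genes, with a range of 2 to 17. The 23 nuclei without a Tfap2b UMI had a median of 8 of the other 19 genes and a median of 6177 UMIs, and the 88 nuclei with one had 11 of 19 and 6468 UMIs. Col25a1 was found in 87 of the 88 nuclei with Tfap2b and in 19 of the 23 without it, and Abca4 in 37 and 5. The nuclei without Tfap2b thus carried fewer of the other genes, with a range of 2 to 12 of the 19, and Abca4 in 21.7% of them against 42.0%.

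Of the 10 genes lowest in cluster 86 relative to other neurons, 5 encode transcription regulators, Ebf1, Ebf2, Meis1, Meis2 and Dach1. Only 6 of these 10 genes stayed in the list without control 2, and 8 or 9 without any other library. The low Ebf levels were shared with clusters 75, 83, 102 and 126, described below, which had Ebf2 at 0.699, 2.38, 2.18 and 0 CPM and Ebf1 at 8.62, 12.2, 25.6 and 6.68 CPM. Ebf2, a factor of the early B-cell factor family, had 0 UMIs in all 4 libraries and was at 56.2 to 88.7 CPM in other neurons. A count of 0 in 111 nuclei allows a share of nuclei with a UMI of up to 2.70%, and 16.6% of other neurons had a UMI of Ebf2. Its relative Ebf1 was at 13.0 ± 10.2 CPM against 532 CPM, the homeobox genes Meis1 and Meis2 at 8.20 against 205 CPM and 17.8 against 355 CPM, and Dach1 at 15.8 against 330 CPM. The list was completed by the adenylyl cyclase gene Adcy8 (16.6 against 287 CPM), Kctd16, which encodes a partner of GABA-B receptors (22.2 against 398 CPM), Zfp804b (27.3 against 644 CPM) and the non-coding D130009I18Rik and 4930587E11Rik. Over all 11056 genes found in at least 5% of nuclei of the cluster, 696 were at least 2-fold higher than in other neurons and 337 at least 2-fold lower, with a median log2 ratio of 0.10. Genes scarce in cluster 86 are left out by this filter, which favours higher over lower genes. The gene lists below have no such filter.

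Cluster 86 carried the genes of inhibitory neurons and almost none of the vesicular glutamate transporters. Gad2 was at 286, 322, 261 and 337 CPM in control 1, control 2, AgRP-Gq;POMC-Gi 1 and AgRP-Gq;POMC-Gi 2, against 91.5 to 96.5 CPM in other neurons. It was found in 76.6% of nuclei, against 38.2% of other neurons and 3.03% of oligodendrocytes, and ranked 3 of the 134 clusters. Slc32a1 was at 36.4, 70.1, 61.3 and 64.2 CPM (27.0 CPM in other neurons). Each library of cluster 86 was above the range of other neurons for both genes. Gad1 went from 12.3 to 91.0 CPM over the libraries and at a mean of 43.2 CPM was below the 50.7 CPM of other neurons.

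The glycine transporter gene Slc6a5 was at 146, 133, 184 and 91.0 CPM against 78.4 to 90.4 CPM in other neurons. Each library was above the range of other neurons, the last of them only just. It was found in 52.3% of nuclei, against 32.5% of other neurons and 1.39% of oligodendrocytes. A UMI of both Gad2 and Slc6a5 was found in 48 of the 111 nuclei, of Gad2 alone in 37, of Slc6a5 alone in 10 and of neither in 16. Nuclei with Gad2 were deeper than those without it, with medians of 6960 and 4487.5 UMIs. Slc6a9, the glycine transporter shared with glia, was at 20.4 ± 10.5 CPM against 13.7 CPM.

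Slc17a6 was at 0, 35.0, 4.08 and 10.7 CPM, a mean of 12.5 against 76.4 CPM in other neurons. Its 8 UMIs lay in 4.50% of nuclei (exact 95% interval 1.48 to 10.2%), and 3.49% of oligodendrocytes also had a UMI, so the share in cluster 86 is not distinguishable from background. Slc17a7 was at 1.02 CPM and Slc17a8 at 0. Slc32a1 exceeded Slc17a6 by a ratio of mean CPM of 4.66 (44 against 8 UMIs, counting 95% interval of the UMI ratio 2.56 to 13.5). The ratio was 10.9 without control 2, which held most of the Slc17a6 UMIs, and 8.41 as a mean over nuclei. At least 1 of Gad1, Gad2, Slc32a1 and Slc6a5 was found in 99 of 111 nuclei (89.2%), at least 1 of the glutamate transporters in 6, a glutamate transporter without any inhibitory gene in 1, and neither kind in 11.

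Genes of the other transmitters were sparse. The catecholamine enzymes Th and Dbh and the noradrenaline transporter gene Slc6a2 had no UMI, and neither had 2 of the 3 serotonin genes. Pomc was found in 1.80% of nuclei, at 3.62 CPM against 3.11 CPM in other neurons. Agrp, whose annotation overlaps that of several other genes on both strands, was listed at 65.4 to 141 CPM in the libraries of cluster 86 and at 87.9 CPM in other neurons, so its UMIs cannot be assigned to it with certainty. The acetylcholine enzyme gene Chat was at 8.44 ± 6.82 CPM and 5.20 CPM in other neurons. Of 33 genes listed as neuropeptides, with Cbln1, Cbln2, Cbln4 and Nxph4 counted among them, 9 had no UMI. On the log2 scale with the pseudocount, genes without a UMI included, 7 of the 33 were at least 2-fold lower and 1 was at least 2-fold higher than in other neurons. The higher gene was Sst, somatostatin, at 52.0, 168, 24.5 and 112 CPM in the 4 libraries. Its mean of 89.3 CPM was above the 29.8 CPM of other neurons, but its UMIs lay in 13.5% of nuclei against 16.4% of other neurons, so the higher level rested on few nuclei. Sst was at 180.4 CPM in cluster 75, in 41.3% of its nuclei, and at 121 CPM in cluster 126.

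**Figure D3:**
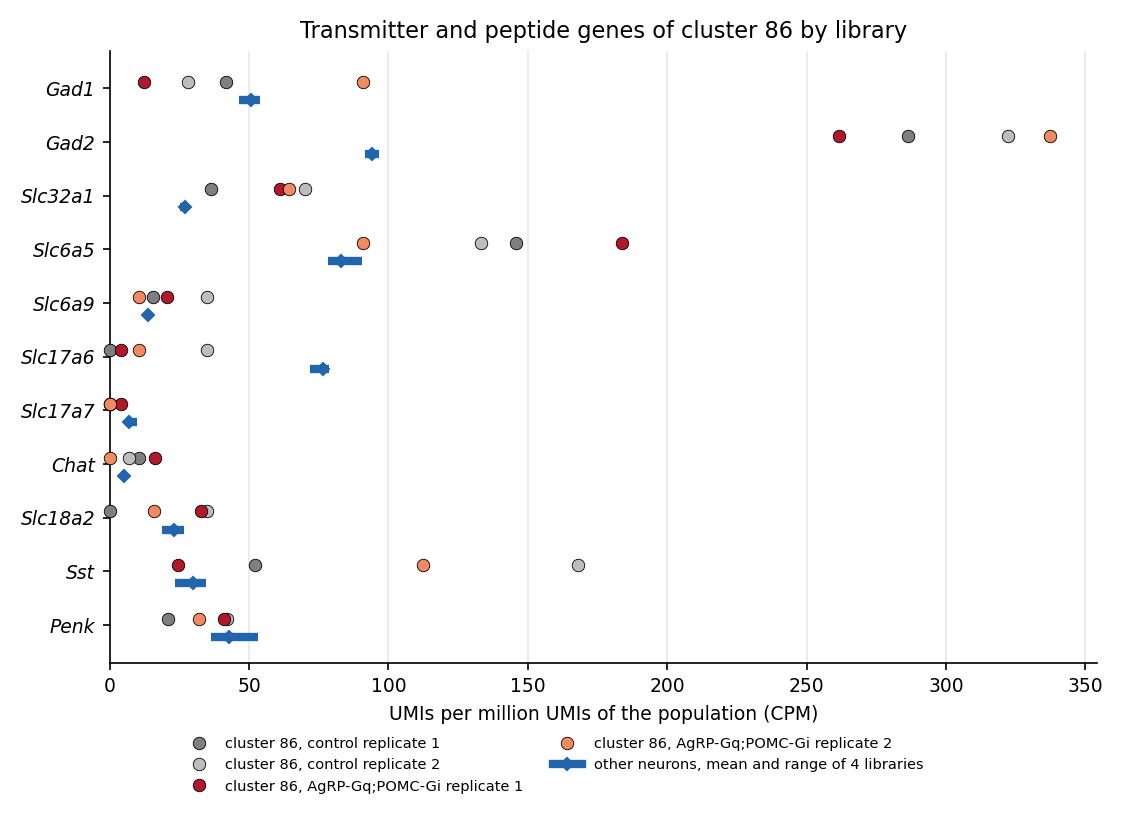
Level in CPM (horizontal axis, starting at 0) of transmitter genes and the peptide genes Sst and Penk in each library of cluster 86 (points) and in other neurons (diamond, mean, with a bar for the range of 4 libraries). Gad2 lies at 261 to 337 CPM, clear of other neurons, and Slc17a6 at 0 to 35.0 CPM, below the 76.4 CPM of other neurons.

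Among 74 hindbrain transcription factor genes, 34 had no UMI in cluster 86, 4 were at least 2-fold higher and 37 at least 2-fold lower than in other neurons, a median log2 ratio of -0.99. Only 22 of the 74 were found in at least 5% of nuclei, so the lower genes include genes with few or no UMIs. A share over all genes without a detection filter was not computed, so the list cannot be called depleted. The genes at least 2-fold higher included Zic1, Zic4 and Gbx2. Zic1, a zinc finger factor of dorsal neural progenitors, was at 41.6, 140, 65.4 and 112 CPM against 22.4 CPM. Zic4 was at 46.8, 63.1, 73.5 and 53.5 CPM against 15.6 CPM. All 4 libraries were above other neurons for both genes, while Zic2 had no UMI. The clusters 75, 83, 102 and 126, described below, had Zic1 at 53.2, 31.0, 35.3 and 117 CPM. Zic4 was at 29.1, 12.7, 28.0 and 45.3 CPM in them, so the higher levels were partly shared. The homeobox gene Gbx2 was low at 8.50 ± 4.68 CPM but at 0.827 CPM in other neurons. Pax2, the factor of many inhibitory interneurons, was at 56.7 ± 15.2 against 60.3 CPM in other neurons but at 85.1, 81.7 and 181 CPM in the inhibitory clusters 75, 83 and 102, and Lhx1 and Lhx5 were at 5.25 and 0 CPM against 14.8 and 6.44 CPM. Nfia, Nfib, Onecut2 and Satb1, transcription regulators that mark other neuronal classes, were at 8.22, 11.8, 2.04 and 4.68 CPM against 116, 106, 24.0 and 41.8 CPM.

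Of 24 Hox genes, which carry the position of a neuron along the body axis, 11 had no UMI, 2 were at least 2-fold higher and 7 at least 2-fold lower than in other neurons. The higher ones belong to the same paralogue group. Hoxd3 was at 104, 133, 98.0 and 85.6 CPM against 25.9 CPM, the highest mean of the 134 clusters, and Hoxa3 at 93.7, 49.0, 61.3 and 42.8 CPM against 29.1 CPM. Hoxb3 was at 85.7 ± 20.2 CPM against 49.2 CPM. Every library of cluster 86 was above every library of other neurons for all 3 genes. The clusters most like cluster 86, described below, shared this in part: in clusters 75, 83 and 102 Hoxd3 was at 56.3, 48.8 and 47.9 CPM, Hoxa3 at 45.4, 48.0 and 31.4 CPM and Hoxb3 at 62.9, 64.7 and 57.7 CPM, each between other neurons and cluster 86.

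Several receptor genes were higher in cluster 86 than in the pooled other neurons, and some of them were shared with the clusters most like it, as given below. Oprm1, the mu opioid receptor, was at 333, 336, 315 and 327 CPM against 105 CPM in other neurons, and was found in 81.1% of nuclei against 41.9%. Its 4 libraries were close together, with an SD of 9.61 CPM, and all stood above other neurons. Htr7, a serotonin receptor coupled to cAMP production, was at 260, 301, 253 and 321 CPM against 63.2 CPM, the highest mean of the 134 clusters, and was found in 68.5% of nuclei. Adra1a, an alpha-1 adrenergic receptor, was at 172, 266, 135 and 118 CPM against 41.7 CPM. Its controls lay above its AgRP-Gq;POMC-Gi libraries without passing the test (log2 -0.71, unadjusted p = 0.0361, adjusted p = 0.997, edgeR).

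At lower levels, the dopamine receptor gene Drd2 was at 43.2 ± 8.86 against 10.8 CPM, the substance P receptor gene Tacr1 at 55.8 ± 14.8 against 18.6 CPM, the thyrotropin-releasing hormone receptor gene Trhr at 26.7 ± 11.9 against 8.39 CPM and the delta opioid receptor gene Oprd1 at 31.1 ± 9.22 against 13.0 CPM. Mc4r, the melanocortin receptor on which the Pomc product alpha-MSH and the Agrp product act, was at 20.8, 14.0, 8.17 and 10.7 CPM against 2.15 CPM, and found in 6.31% of nuclei (exact 95% interval 2.57 to 12.6%) against 1.79% of other neurons and 0.137% of oligodendrocytes. The leptin receptor gene Lepr did not stand apart (15.7 against 17.7 CPM), and Gfral and Calcr, the receptor genes for GDF15 and calcitonin, had no UMI. Of 51 feeding and peptide receptor genes, 13 were at least 2-fold higher, 14 at least 2-fold lower and 15 without a UMI, with a median log2 ratio of -0.17, and of 42 monoamine, acetylcholine and cannabinoid receptor genes 3 were higher, 5 lower and 19 without a UMI.

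The subunits of ionotropic inhibitory receptors were shifted towards particular members. The GABA-A subunit gene Gabrb2 was higher, at 281, 448, 449 and 385 CPM against 153 CPM, and ranked 3 of the 134 clusters. The alpha subunit gene Gabra2 was lower, at 47.3 ± 41.3 against 148 CPM. Of the glycine receptor genes, Glra2 was higher (136 ± 56.1 against 51.3 CPM) and Glra1 lower (108 ± 12.0 against 230 CPM). In all, of 20 listed genes, which were subunit genes and the scaffold gene Gphn, 5 were at least 2-fold higher and 5 at least 2-fold lower. Of 24 glutamate receptor genes 2 were at least 2-fold higher, the NMDA receptor subunit gene Grin3a (881 ± 107 against 247 CPM) and the inhibitory metabotropic receptor gene Grm8 (1635 ± 588 against 484 CPM), and Grm5 was among the 4 lower genes (304 ± 87.9 against 1323 CPM).

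**Figure D4:**
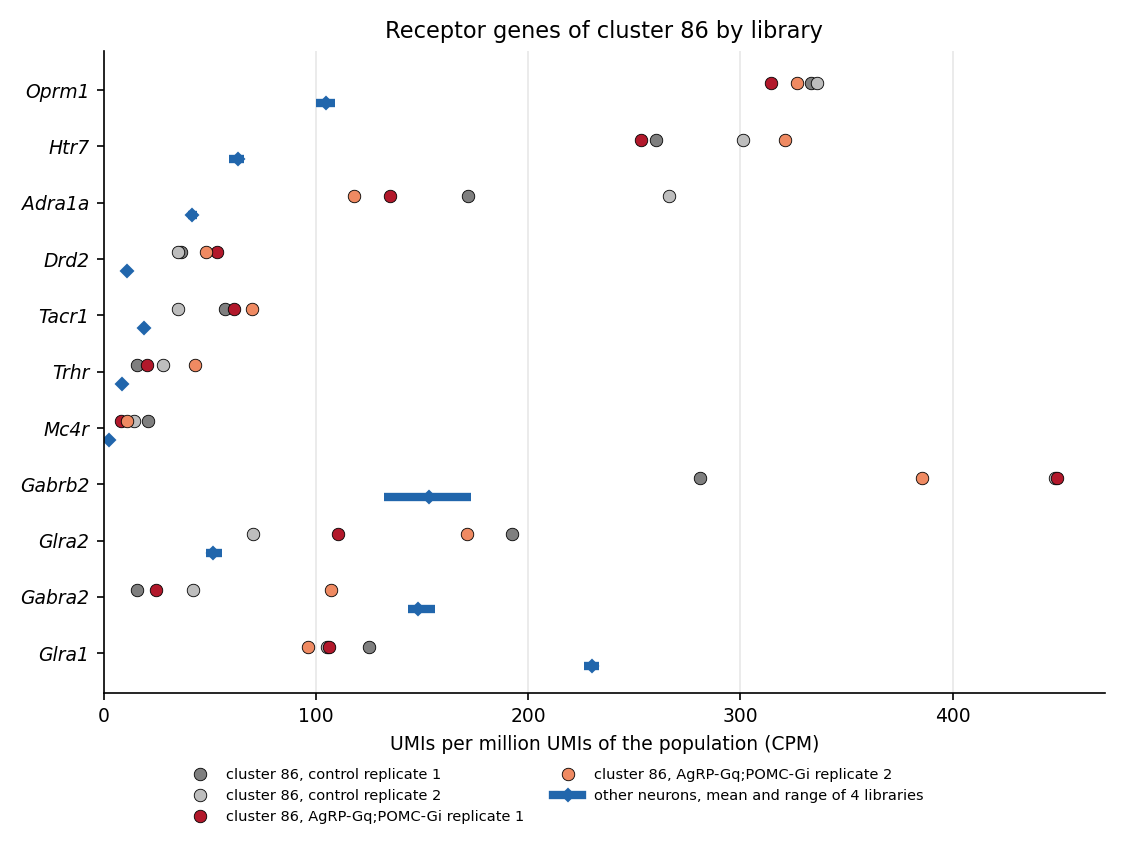
Level in CPM (horizontal axis, starting at 0) of receptor genes in each library of cluster 86 (points) and in other neurons (diamond, mean, with a bar for the range of 4 libraries). Oprm1 clusters tightly at 315 to 336 CPM and Htr7 lies at 253 to 321 CPM, both clear of other neurons, while Gabra2 and Glra1 lie below them.

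Ion channel genes lay on both sides of other neurons. Over the 11056 genes found in at least 5% of nuclei, 696 were at least 2-fold higher and 337 at least 2-fold lower. Of 33 potassium channel genes 6 were at least 2-fold higher and 7 lower, the higher ones including the Shaker-type Kcna4 (86.9 ± 27.1 against 21.2 CPM), the M-current gene Kcnq5 (1383 ± 457 against 526 CPM) and the calcium-activated Kcnn3 (83.9 ± 14.9 against 30.8 CPM). Of the accessory calcium channel subunits, Cacna2d3 was at 1745 ± 93.4 against 519 CPM and found in 100% of nuclei, whereas Cacna2d1 was at 55.1 ± 47.4 against 509 CPM. Of 20 sodium, calcium and HCN channel genes 1 was at least 2-fold higher and 3 lower. A list of 36 genes held collagens and the receptor phosphatase genes Ptprd, Ptprf and Ptprs. Of these 36, 5 were at least 2-fold higher, among them Col25a1 and Col12a1 (71.0 ± 20.5 against 18.9 CPM), and 13 lower. Of the 8 calcium-binding protein genes 0 were at least 2-fold higher.

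The neuronal clusters most like cluster 86 over 12115 genes were cluster 75 (121 nuclei, Spearman correlation across genes 0.925), cluster 83 (113 nuclei, 0.916) and cluster 102 (94 nuclei, 0.905), where the median over all other clusters was 0.857. Genes are not independent replicates and these values describe likeness only. All 3 were also inhibitory, with Gad2 at 287, 244 and 245 CPM and Slc6a5 at 117, 146 and 170 CPM. Tfap2b was at 21.1 CPM in cluster 75, about the level of other neurons, with 0 to 57.1 CPM over its libraries and a UMI in 12.4% of nuclei, and at 2.56 and 1.30 CPM in clusters 83 and 102. Among these 3, cluster 75 came nearest in other leading genes, with Sema3e at 303 CPM, Zeb2 at 614 CPM, Stard13 at 191 CPM and Abca4 at 18.0 CPM, but Foxo1 at 8.22 CPM against 117 CPM and Col25a1 at 223 CPM against 1243 CPM. In clusters 83 and 102 Abca4 was at 0 and 0.881 CPM and Sema3e at 12.2 and 4.36 CPM. Cluster 126 (72 nuclei), ranked 8 by likeness at 0.895, shared both Tfap2b (326 CPM) and the inhibitory genes. It had Abca4 at 33.5 CPM, Klhl14 at 119 CPM, Stard13 at 200.5 CPM and Col25a1 at 266 CPM, all above cluster 75 and below cluster 86, Zic1 at 117 ± 37.1 CPM against 89.9 ± 44.6 CPM in cluster 86, Pax2 at 386 CPM against 56.7 CPM, and Foxo1 at 5.73 CPM. Receptor genes were partly shared: Adra1a was at 147, 150.4 and 111 CPM in clusters 75, 83 and 102 against 173 ± 66.3 CPM in cluster 86, and Oprm1 at 229, 188 and 56.8 CPM in these and 297 CPM in cluster 126 against 328 CPM. Htr7 was at 109, 86.2, 105 and 144 CPM in clusters 75, 83, 102 and 126 against 284 CPM. Conversely, Ndnf, a secreted neuronal factor, was at 1.02 CPM in cluster 86 where cluster 75 had 93.1 CPM, and Galr1, a galanin receptor gene, at 1.02 CPM in cluster 86 where clusters 83 and 102 had 50.5 and 43.4 CPM.

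The comparison of AgRP-Gq;POMC-Gi with control mice asks whether driving Agrp neurons while silencing Pomc neurons changes hindbrain neurons. In cluster 86 it gave 1 gene. UMIs were summed per library, and among 11056 genes tested 1 (0.00904%) was called at an adjusted p under 0.05. That gene was Slc35f1, which encodes a member of the solute carrier family 35 found in brain. It was at 213 and 182 CPM in control 1 and 2 and at 519 and 931 CPM in AgRP-Gq;POMC-Gi 1 and 2, from 41, 26, 127 and 174 UMIs. Both AgRP-Gq;POMC-Gi libraries were above both controls, and the 2 AgRP-Gq;POMC-Gi libraries differed more from each other than the controls did. Slc35f1 rose by 1.89 ± 0.29 on the log2 scale (± SE, unadjusted p = 1.50e-06, adjusted p = 0.0166, edgeR's quasi-likelihood test with Benjamini-Hochberg adjustment). DESeq2 also called 1 gene, Slc35f1, at an adjusted p of 0.0223. The call was lost without control 1 (adjusted p = 0.886), without AgRP-Gq;POMC-Gi 2 (adjusted p = 0.135) and when edgeR's stricter filter on low counts left 4122 genes (adjusted p = 0.281), with log2 differences of 2.02, 1.46 and 1.87. With a library left out its group has 1 library, which is assumed to vary like the pair of the other group, so calls lost or gained in these fits rest on 1 residual degree of freedom.

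A UMI of Slc35f1 was found in 10 of 25 and 7 of 18 nuclei of the control libraries (40.0% and 38.9%), as against 25 of 41 and 22 of 27 in AgRP-Gq;POMC-Gi (61.0% and 81.5%). The nuclei of the AgRP-Gq;POMC-Gi libraries were the shallower ones, with medians of 5273 and 6384 UMIs against 7473 and 7197. Within each library, the nucleus with most Slc35f1 UMIs gave 34.1% and 26.9% of those of control 1 and 2 and 19.7% and 18.4% of those of AgRP-Gq;POMC-Gi 1 and 2, and the highest count in any nucleus was 32. In other neurons the gene was at 472 and 467 CPM in control 1 and 2 and at 495 and 447 CPM in AgRP-Gq;POMC-Gi 1 and 2, and was found in 82.0 to 83.6% of nuclei. The controls of cluster 86 thus lay below other neurons, and AgRP-Gq;POMC-Gi 1 near them. The difference between the groups was larger in cluster 86 than in other neurons by 1.81 ± 0.31 on the log2 scale (adjusted p = 0.0398, edgeR's quasi-likelihood test of the interaction). Slc35f1 was the only gene of 11056 (0.00904%) so called, with 425 (3.84%) at an unadjusted p under 0.05. This test assumes 1 spread for the small sums of cluster 86 and the far larger sums of other neurons. The common spread between libraries (biological coefficient of variation) was 0.106 in it and 0.175 in cluster 86 alone. DESeq2's test of the same interaction called 0 genes with 139 at an unadjusted p under 0.05 and 0.0660 as its lowest adjusted p.

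Across 77 neuronal clusters, those in which each library had 10 or more nuclei, the Slc35f1 difference of cluster 86 ranked 1. Because the gene was chosen for its difference in cluster 86, this rank is a description and adds no support. The other clusters ran from -0.91 to 0.70 on the log2 scale of mean CPM plus 1, with a median of -0.04. The groups did not overlap upwards in 10 and downwards in 13 of them. Over all genes tested in cluster 86, the groups did not overlap upwards for 16.2% and downwards for 16.8%, so such counts are no sign of a response. Slc35f1 also varied between the nuclei of cluster 86, with a variance within libraries 6.59 times that expected from depth alone, where the median gene was at 1.11 times. At a given relative spread this ratio rises with the level of a gene, so genes of unlike level cannot be ranked by it. A change in which nuclei made up the cluster and a change within nuclei cannot be told apart.

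**Figure D5:**
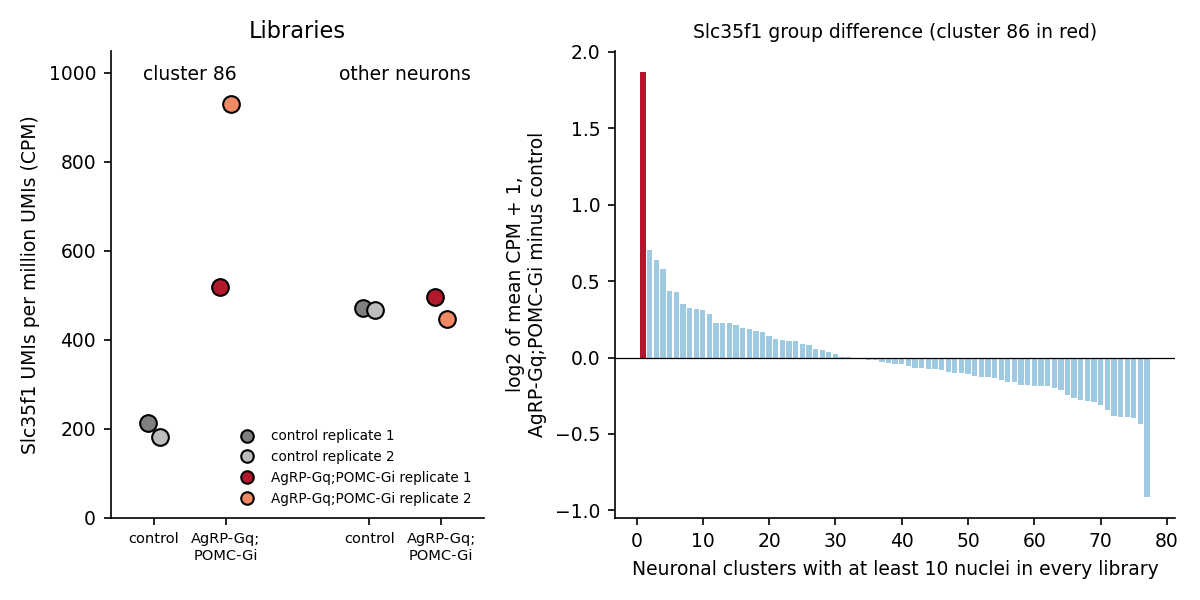
Slc35f1 level in CPM (left, vertical axis, each point a library) in cluster 86 and in other neurons, and its difference between the groups (right, log2 of mean CPM plus 1, AgRP-Gq;POMC-Gi minus control) in 77 neuronal clusters. In cluster 86 the points go from 182 and 213 to 519 and 931 CPM while those of other neurons stay at 447 to 495 CPM, and no other cluster exceeds 0.70. Slc35f1 was chosen for its difference in cluster 86.

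No other gene passed the adjusted threshold. An unadjusted p under 0.05 was found for 420 genes (3.80%), 220 higher (1.99%) and 200 lower (1.81%) in AgRP-Gq;POMC-Gi, and the libraries of the groups did not overlap for 3647 genes (33.0%). Among genes higher in AgRP-Gq;POMC-Gi, the lowest p-values after Slc35f1 were for Uimc1 (41.6 and 35.0 CPM in controls, 139 and 118 CPM in AgRP-Gq;POMC-Gi). The Y-linked Eif2s3y and Uty and the histone gene H3f3b (78.1 and 140 against 237 and 230 CPM) came next. The Y-linked genes followed 1 library: Uty was at 139 CPM in AgRP-Gq;POMC-Gi 2 and at 7.01 to 32.7 CPM elsewhere, while Xist, the RNA of the inactive X chromosome, was at 16.1 CPM there and at 378 to 707 CPM elsewhere. Other neurons showed the same, with Xist at 16.2 CPM in that library. The part of these sex-linked differences between libraries in the results was not tested. On the lower side were Gm2824 (67.7 and 105 against 16.3 and 16.1 CPM), the transcription factor gene Yy1 (67.7 and 77.1 against 12.3 and 16.1 CPM), the prostaglandin D synthase gene Ptgds, the ribosomal protein gene Rpl17 and Arpp21, a phosphoprotein of dopamine-responsive neurons. All had an adjusted p of 0.997 (edgeR). Some of these differences were also seen in other neurons, as means of controls and of AgRP-Gq;POMC-Gi. Ptgds was at 194 and 118 CPM there, H3f3b at 84.3 and 138 CPM, Rpl17 at 53.9 and 41.7 CPM and Arpp21 at 522 and 456 CPM. Uimc1 (84.4 and 87.7 CPM), Gm2824 (19.1 and 18.5 CPM) and Yy1 (36.1 and 35.7 CPM) were nearly level there.

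The immediate early genes that the study used as signs of recent neuronal activity did not pass the test between the groups. Of the 10, 4 had enough UMIs to be tested, 0 were called and 0 had an unadjusted p under 0.05 (edgeR), with a median log2 difference of -0.16 against 0.01 over all genes tested. Homer1, a scaffold of glutamate synapses, was at 88.5, 63.1, 28.6 and 69.6 CPM in control 1, control 2, AgRP-Gq;POMC-Gi 1 and AgRP-Gq;POMC-Gi 2, and at 66.7 CPM in other neurons (log2 -0.67 ± 0.49, adjusted p = 0.997). Jun was at 5.20, 28.0, 8.17 and 5.35 CPM, and Btg1 at 15.6, 14.0, 24.5 and 10.7 CPM. Fos was found in 1.80% of nuclei, all in AgRP-Gq;POMC-Gi 1 at 16.3 CPM, and Fosl2 in 0. At this depth, differences in these genes were not detectable, which does not show that they were absent.

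Between the groups, differences in the genes that define the cluster or its transmitters were within their errors or did not pass the test. Tfap2b differed by 0.08 ± 0.27 on the log2 scale, Gad2 by 0.02 ± 0.27, Slc6a5 by 0.06 ± 0.36, Slc32a1 by 0.33 ± 0.48, Oprm1 by -0.02 ± 0.26 and Htr7 by 0.07 ± 0.27 (± SE). Of the 20 leading genes 0 were called and 2 were lower at an unadjusted p under 0.05 (edgeR), among them Foxo1, where 1.81% of all genes tested were lower by that measure. Of 31 potassium channel genes tested 0 were called, and 3 were higher and 1 lower at an unadjusted p under 0.05 (1.99% and 1.81% of all genes tested). The lower gene was Kcnip1, a modulator of A-type channels, at 552 and 504 against 323 and 278 CPM (log2 -0.76, unadjusted p = 0.00680). The higher ones were Kcnip4 at 1129 and 1471 against 1642 and 2066 CPM (log2 0.56, unadjusted p = 0.0166), Kcnq5 at 1405 and 876 against 1270 and 1981 CPM (log2 0.53, unadjusted p = 0.0422) and Kcnb2 at 276 and 266 against 294 and 514 CPM (log2 0.60, unadjusted p = 0.0497), of which Kcnq5 overlapped between the groups. Of 5 calcium-binding protein genes tested 0 were called and 2 were higher at an unadjusted p under 0.05, Necab1 at 88.5 and 35.0 against 163 and 155 CPM (log2 1.34, unadjusted p = 0.00266) and Calb1 at 10.4 and 14.0 against 24.5 and 53.5 CPM (log2 1.64, unadjusted p = 0.0446). Of the 5 oligodendrocyte markers tested 0 were called and 3 were lower at an unadjusted p under 0.05 (1.81% of all genes tested), among them Mbp and Mobp, both highest in control 2, and their part in other differences was not tested.

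Within the libraries of cluster 86, Malat1, Cntnap2, Lsamp and Gm32647 had the highest variances relative to depth, over 8350 genes found in at least 10% of nuclei. Their variances around the library means were 33.0, 22.3, 18.3 and 13.0 times those that depth alone would give. As said for Slc35f1, this ratio rises with level, so abundant genes are favoured. Around a single mean for all libraries Malat1 reached 61.5 times, as its libraries themselves ranged from 33368 to 64171 CPM. Cntnap2 and Lsamp encode adhesion proteins of neurons and were both found in 99.1% of nuclei, so they varied in amount more than in presence. Lrrtm4, a synaptic adhesion gene found in 59.5% of nuclei, had a variance 11.7 times that from depth and was at 807, 567, 801 and 1574 CPM in the 4 libraries. AgRP-Gq;POMC-Gi 2 was the highest library for Lrrtm4 but the lowest for Cntnap2, Lsamp and Gm32647, at 4983, 2179 and 1327.5 CPM.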

How the data were processed

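Nuclei were sorted on DRAQ5 and sequenced with 10x 3′ chemistry. The authors mapped reads to GRCm38 (mm10) with Cell Ranger 7.0.0, deposited UMI counts per gene and barcode, filtered nuclei on UMIs, genes and mitochondrial reads, removed doublets and clustered with Seurat 4.3.0 on an scVI embedding. The deposited annotation, which also gives each nucleus' mitochondrial percent, was used unchanged, and its UMI and gene totals matched the matrices for 44303 of 44303 barcodes. Its activity score columns hold the authors' findings and were not used. Members and gene lists were chosen with earlier results of these data known.

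UMIs were summed per library, with a pseudocount of 1 CPM for ratios. Genes named were the 20 highest (found in at least 25% of nuclei) and 10 lowest (at least 50 CPM in other neurons) against other neurons, members of 27 lists that led their list, were at 0 or were its subject, the study's immediate early genes and those of lowest p between groups. Clusters were not compared with other neurons by test. Groups were tested with edgeR 4.0.16 (R 4.3.3, TMM, quasi-likelihood) over genes found in at least 5% of nuclei, the interaction with library as a block, and DESeq2 1.42.0 was the alternative. Descriptions used Python 3.11.15. The alternatives were other normalizations, filters, thinning to 2000 UMIs, pseudocounts, blocking on the replicate number, and leaving out single libraries. Variances around library means were added after seeing the data. Intervals are at 95%. Some genes that the rule names are not reported here.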

Additional observations from a re-analysis of the deposited data

Results flagged for a closer look

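The difference in Slc35f1 between the groups stood out because it was larger in cluster 86 than in the other neurons of the same libraries, by 1.81 on the log2 scale (edgeR's test of the interaction, adjusted p = 0.0398). That test assumes equal spread in both populations, as given above. Cluster 86 rose from 213 and 182 to 519 and 931 CPM, and other neurons were at 472, 467, 495 and 447 CPM. DESeq2's test of the interaction gave 0.0660 as its lowest adjusted p, with 0 calls and 139 genes at an unadjusted p under 0.05, and edgeR gave 0 calls without control 2 and without AgRP-Gq;POMC-Gi 2. The part of sex, of depth and of the makeup of the cluster in this difference was not tested.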

How the results depend on the processing

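For single genes between the groups, 119 alternative values kept their direction and their side of the threshold, 5 kept their direction only (3 of Slc35f1, given above, and 1 each of Eif2s3y and Uty) and 6, all of genes not called, changed sign with a library left out. With a library left out the log2 difference ran from -1.86 to 0.40 for Jun (0.40 without control 2), from -0.45 to 0.77 for Btg1 (-0.45 without AgRP-Gq;POMC-Gi 1), from -0.45 to 1.57 for 1700016P03Rik (-0.30 without control 1, -0.45 without AgRP-Gq;POMC-Gi 2) and from -0.20 to 0.44 for Tfap2b (-0.20 without control 2, -0.04 without AgRP-Gq;POMC-Gi 2). The count of genes called between the groups was 2 with no filter on low counts, 0 under edgeR's stricter filter (184 of 4122 genes at an unadjusted p under 0.05), and 0 to 10 with a library left out. The 0 arose without control 1 (506 genes at an unadjusted p under 0.05) and the 10 without AgRP-Gq;POMC-Gi 1, where 2 of the genes called were Eif2s3y and Uty, while without control 2 there were 3. The count for the interaction was 0 by DESeq2 and 0 to 10 with a library left out, with 9 without control 1, 10 without AgRP-Gq;POMC-Gi 1 and 0 without control 2 and without AgRP-Gq;POMC-Gi 2. The share of neurons ran from -0.16 to 0.49 on the log2 scale with a library left out, reversing to -0.13 without control 2 and to -0.16 without AgRP-Gq;POMC-Gi 1, and was 0.66 as a share of all nuclei. With the replicate number as a block, which the labels do not say marks a shared batch, the share differed by 0.15 and 1 gene was called. For genes of at least 50 CPM, the deviations of same-numbered libraries from their group means in log2 CPM were correlated. This gave 0.06 over 3959 genes in cluster 86 and 0.40 over 3825 genes in other neurons. Tfap2b was at 382 to 439 CPM with a library left out, 457 CPM after thinning and 413 CPM as a mean over nuclei. The ratio of Slc32a1 to Slc17a6 was 3.73 to 10.9 with a library left out, 5.12 after thinning and 8.41 as a mean over nuclei. Lowering the detection minimum to 10% of nuclei kept 6 of the 20 leading genes, the new ones including Postn, Prokr2 and Rgs5, whereas a pseudocount of 5 kept 18. Leaving out a library, tried after seeing the data, kept 16 to 18. With 18 to 41 nuclei a library, low genes such as Fos could not be compared.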

Other observations

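Among 31 further genes linked to neuronal activity, 3 were at least 2-fold higher in cluster 86 than in other neurons, 3 at least 2-fold lower and 8 without a UMI. Rgs4, which shortens signalling through Gi and Gq proteins, was at 15.6, 63.1, 44.9 and 37.5 CPM in control 1, control 2, AgRP-Gq;POMC-Gi 1 and AgRP-Gq;POMC-Gi 2 against 7.05 CPM, and ranked 2 among the neuronal clusters. Scg2, a secretogranin of dense-core vesicles, was at 224, 322, 294 and 450 CPM against 135 CPM. Every library of the cluster was above every library of other neurons for both genes. Between the groups 11 of the 31 could be tested and 0 were called, against 1 of all 11056 genes tested (0.00904%, edgeR). Sgk1, a kinase induced by glucocorticoids, was the only gene among them with an unadjusted p under 0.05, at 83.3 and 91.1 CPM in controls and 44.9 and 26.8 CPM in AgRP-Gq;POMC-Gi (log2 -1.17, unadjusted p = 0.0214, adjusted p = 0.997). Over all 11056 genes tested, 420 (3.80%) had an unadjusted p under 0.05 and 200 (1.81%) were lower by that measure (edgeR).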
